A study of Mus musculus with 6 samples.

Results

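The chaperones of the endoplasmic reticulum (ER) and the unfolded protein response (UPR) were examined here through 10 genes, chosen by their symbols: Hspa5, Hsp90b1, Pdia4, Dnajb9, Herpud1, Xbp1, Calr, Canx, Sdf2l1 and Ern1. Earlier results of these data were known when these genes and the gene lists used below were chosen. All 10 were present among the 12534 genes of the expression table, and all 10 passed the filter on low counts that left 12106 genes for testing. RNA was sequenced from 3 samples of 4T1 GPD2 KO cells (genotype Gpd2 -/-) and 3 samples of 4T1 WT cells (genotype wildtype). 4T1 is a mammary carcinoma line of BALB/c mice, and both groups were grown in RPMI medium, for which the methods give serum and antibiotics as supplements unless another medium is named. The KO cells descended from 1 clone that grew from a single cell after transient CRISPR-Cas9 transfection and puromycin selection, so loss of GPD2 and the history of this clone cannot be told apart. In the sample records the vector carrying Cas9 and the guide is entered for WT samples as well, although the methods describe transfection only for the KO lines, so the exposure of the WT cells is not known. As the RNA came from bulk cultures, fewer cells of a type and less RNA per cell cannot be told apart.

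Proteins that enter the ER fold there with the help of BiP (encoded by Hspa5), an Hsp70-type chaperone, together with GRP94, the lectin chaperones calnexin and calreticulin, and protein disulfide isomerases. When unfolded proteins accumulate, the sensors IRE1 (encoded by Ern1), ATF6 and PERK signal to the nucleus. IRE1 splices the Xbp1 RNA, ATF6 is cleaved to a transcription factor, and PERK phosphorylates eIF2alpha and thereby raises translation of ATF4. Genes for chaperones, for ER-associated degradation (ERAD) and for the secretory pathway are the classical targets.

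The libraries held 51186527 to 59846170 counts each. Gpd2, the targeted gene, was at 25.6, 26.2 and 25.8 CPM (counts scaled by the adjusted library total) in the KO libraries, against 135, 135 and 136 CPM in the WT libraries, and was lower in every KO library. Of the 10 epithelial markers listed, Krt8, Krt18 and Krt7 were measured, and their summed level was 733 to 771 CPM in KO and 1267 to 1331 CPM in WT libraries; Epcam, Cdh1 and the other 5 were not analysed here. Of the macrophage markers 5 of 9 were measured, at a summed 30.2 to 32.0 CPM in KO and 37.9 to 38.9 CPM in WT libraries. Most of this sum came from Cd14 (mean 20.1 CPM in KO and 23.1 CPM in WT) and Cd68 (9.79 and 13.2 CPM). Lyz2, Itgam and Mrc1 were near the floor, with means of 0.19 to 1.17 CPM. Itgam had the higher mean in KO (0.31 against 0.19 CPM) and did not pass the test described below. Ptprc, Adgre1, Csf1r and Fcgr1 were not analysed here. For fibroblasts 2 of 8 were measured (55.5 to 63.0 CPM in KO and 114.9 to 115.5 CPM in WT, mostly from Pdgfra). For endothelium 1 of 7 was measured (3.11 to 3.92 CPM in KO and 20.5 to 21.3 CPM in WT). For lymphocytes and plasma cells 3 of 10 were measured (178 to 188 CPM in KO and 175 to 182 CPM in WT, nearly all from Sdc1). The part of these markers in the results was not tested.

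The fitted changes of the 10 genes in GPD2 KO cells were small, although that of Canx was uncertain (95% interval -32.9% to 6.65%). Hspa5 rose, Ern1, Pdia4 and Sdf2l1 fell, and 6 genes did not pass the test, which was edgeR's quasi-likelihood test at a Benjamini-Hochberg adjusted p under 0.05 over all tested genes. The 4 that passed had log2 fold changes between -0.30 and 0.21. Passing the test was common in this comparison: 66.8% of all tested genes passed, 33.5% as higher and 33.3% as lower in KO, against 4 of these 10 genes (1 higher and 3 lower). The median log2 fold change of KO over WT was -0.08 over the 10 genes and -0.00081 over all tested genes. The median size of the log2 fold change, without its sign, was 0.14 over the 10 genes and 0.29 over all tested genes, and 9 of the 10 were below the median of all tested genes. At the thresholds that the study's methods name, a fold of 2 with an unadjusted exact test p under 0.05, 0 of the 10 passed, while 8.64% of all tested genes did (3.86% as higher and 4.78% as lower in KO). Without the fold threshold, 4 of the 10 had an unadjusted p under 0.05 in that exact test (Hspa5, Pdia4, Sdf2l1 and Ern1), as did 64.6% of all tested genes. With DESeq2 at an adjusted p under 0.05, 4 of the 10 passed, and 66.5% of all tested genes.

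**Figure D1:**
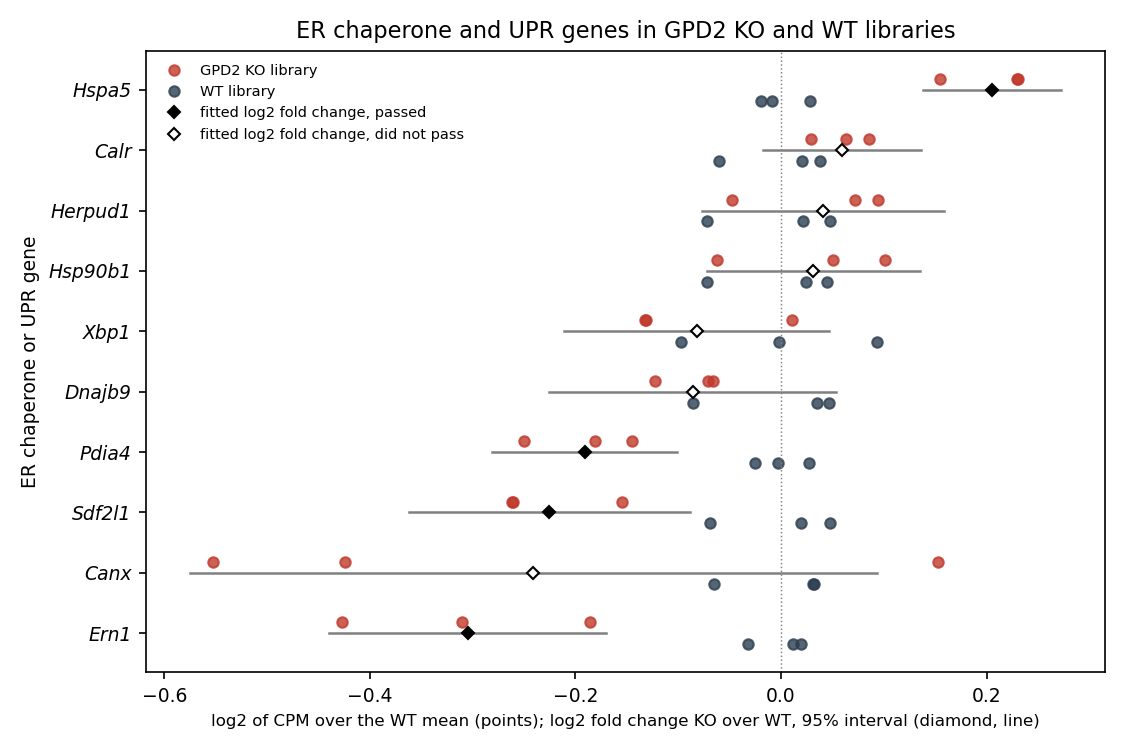
Each point is 1 library, placed at the log2 of its CPM over the mean of the 3 WT libraries (horizontal axis); the diamond is the log2 fold change of GPD2 KO over WT with its 95% interval, filled where the gene passed at an adjusted p under 0.05. The KO points lie above every WT point for Hspa5 and below every WT point for Pdia4, Sdf2l1 and Ern1, and the 3 KO points of Canx are spread more widely than those of any other gene shown.

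The promoter windows of these genes are shown because ATF6, XBP1 and ATF4 are known to act at short motifs near the start site. The windows, taken from RefSeq on GRCm38.p6 (the assembly of mm10), run from 250 bases before to 50 bases after the start of each gene, and all 10 genes matched by Entrez identifier. Both strands were searched for the ER stress element (ERSE, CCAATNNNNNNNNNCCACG), a relaxed ERSE (CCAATNNNNNNNNNCCANG, which every ERSE also matches), ERSE-II (ATTGGNCCACG), the core of the UPR element (UPRE, TGACGTG) and the core of the ATF4 response element (CARE, TGATGNAA). Apart from each ERSE lying within a relaxed ERSE, no matches of different kinds overlapped in the 10 windows. In the sequences below, the 5 bases at each end of an ERSE or relaxed ERSE and the whole of any other match are in capitals, and a match on the other strand reads as its reverse complement.
Hspa5: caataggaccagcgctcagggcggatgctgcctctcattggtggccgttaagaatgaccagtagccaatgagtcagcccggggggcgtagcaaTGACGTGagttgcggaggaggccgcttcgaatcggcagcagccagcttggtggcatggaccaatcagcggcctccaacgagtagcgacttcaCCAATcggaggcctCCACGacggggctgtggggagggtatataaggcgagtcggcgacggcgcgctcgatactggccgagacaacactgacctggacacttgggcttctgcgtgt
Hsp90b1: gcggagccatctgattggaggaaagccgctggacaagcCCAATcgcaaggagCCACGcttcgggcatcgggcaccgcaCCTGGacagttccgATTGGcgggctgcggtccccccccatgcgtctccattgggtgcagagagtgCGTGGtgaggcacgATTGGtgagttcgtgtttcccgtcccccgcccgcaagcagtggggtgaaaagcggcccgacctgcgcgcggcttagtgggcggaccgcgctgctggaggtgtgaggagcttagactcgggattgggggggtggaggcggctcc
Canx: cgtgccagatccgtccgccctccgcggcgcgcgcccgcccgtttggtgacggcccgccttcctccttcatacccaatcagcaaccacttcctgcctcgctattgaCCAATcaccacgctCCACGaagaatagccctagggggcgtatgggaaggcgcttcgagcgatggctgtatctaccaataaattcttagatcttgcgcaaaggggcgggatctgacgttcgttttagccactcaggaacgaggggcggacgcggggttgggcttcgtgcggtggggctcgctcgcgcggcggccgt
Herpud1: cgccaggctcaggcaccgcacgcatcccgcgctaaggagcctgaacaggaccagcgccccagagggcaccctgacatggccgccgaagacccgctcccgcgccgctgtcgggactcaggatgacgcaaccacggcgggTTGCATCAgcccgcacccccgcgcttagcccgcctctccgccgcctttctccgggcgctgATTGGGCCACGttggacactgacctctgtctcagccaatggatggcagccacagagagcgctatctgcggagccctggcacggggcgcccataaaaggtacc

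The Hspa5 window (chr2:34771840-34772139, plus strand) held 1 ERSE, from 65 to 47 bases before the start, and 1 UPRE core from 157 to 151 bases before it. The Hsp90b1 window (chr10:86705395-86705694, minus strand) held 2 ERSE matches and a further relaxed one, the largest number among the 10. Canx (chr11:50325624-50325923, minus strand) and Calr (chr8:84846882-84847181, minus strand) held 1 ERSE each, and Herpud1 (chr8:94386179-94386478, plus strand) held 1 ERSE-II and 1 CARE core. No match to these letters was found in the windows of Pdia4, Sdf2l1, Dnajb9, Xbp1 and Ern1. This says nothing about sites outside these windows, and sites that differ from these letters were not searched for. Thus 4 of the 10 windows held an ERSE, against 0.119% of the 32851 mouse promoter windows searched and 0.139% of the 12191 windows of tested genes. The 10 genes were chosen as known ER chaperone and UPR genes, so these shares are no test of enrichment. ERSE-II was found in 0.0365%, the UPRE core in 2.01% and the CARE core in 3.97% of all windows. Among windows of tested genes these shares were 0.0656%, 2.82% and 2.17%. Of the 4 genes with an ERSE, Hspa5 rose and Hsp90b1, Calr and Canx did not pass the test. Pdia4, Sdf2l1 and Ern1, which fell, had no match to its letters, and a link between motif and direction was not tested.

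**Figure D2:**
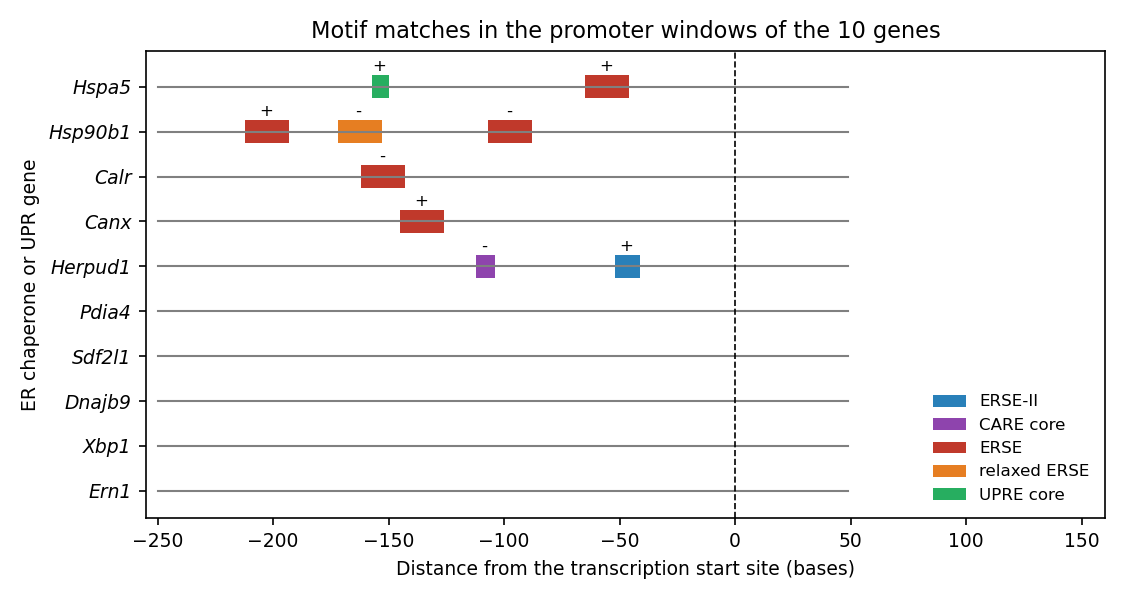
Positions of motif matches in the promoter windows of the 10 genes, as the distance in bases from the transcription start site (dashed line); each grey line is 1 window, the boxes are matches and + or - gives their strand relative to the gene. ERSE matches lie in the windows of Hspa5, Hsp90b1, Calr and Canx, and 5 windows are empty.

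Levels of the 10 genes were compared in TPM, a scale that accounts for transcript length and library depth. In both groups the order from Hspa5 over Hsp90b1, Calr, Canx, Pdia4, Xbp1, Herpud1 and Sdf2l1 down to Ern1 and Dnajb9 was the same. The mean level of the highest gene was 127 times that of the lowest in KO and 104 times in WT cells. Neighbours in this order had TPM ranges that did not overlap, with the exceptions of Xbp1 and Herpud1 and of Ern1 and Dnajb9 in the KO libraries. Hspa5 was the 59th gene of the table by mean TPM in KO and the 69th in WT cells. The summed level of the 10 genes was 5253, 4696 and 5010 TPM in KO libraries and 4822, 4805 and 4595 TPM in WT libraries. These sums overlapped between the groups, and Hspa5, Hsp90b1 and Calr made up 85.1% to 87.2% of them in KO and 83.5% to 83.8% in WT libraries.

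**Figure D3:**
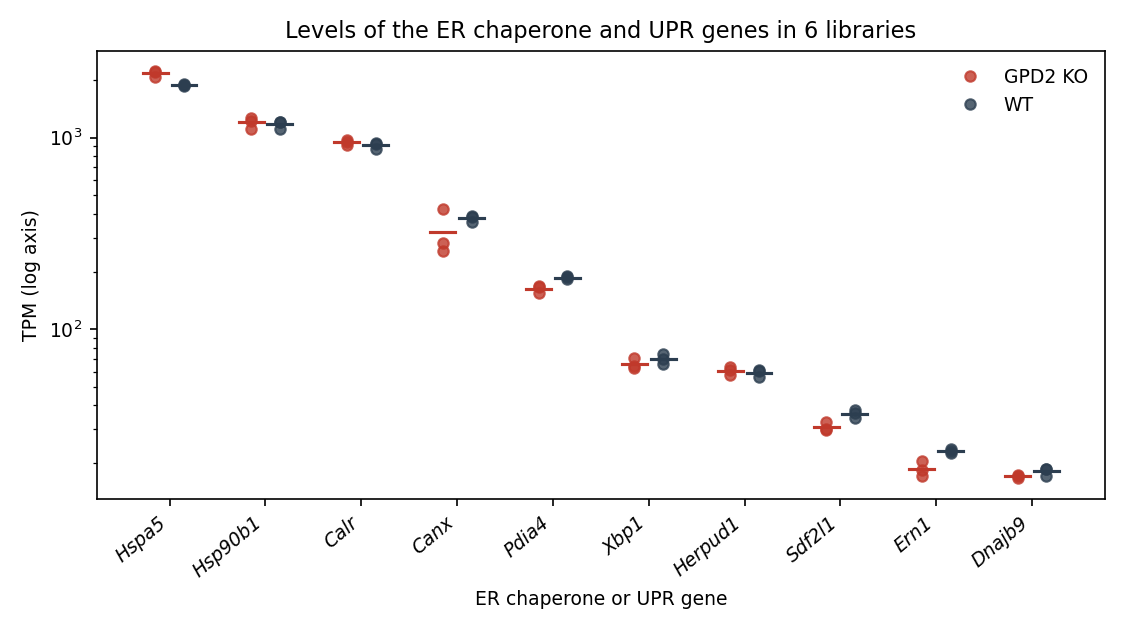
TPM of each gene (log axis) in the 3 GPD2 KO libraries (left of each pair) and the 3 WT libraries (right), with 1 point per library and a bar at the mean. The order of the genes is the same in both groups, from Hspa5 at a mean of 2162 TPM in KO and 1883 TPM in WT cells down to Dnajb9 at 17.1 TPM in KO and 18.2 TPM in WT cells.

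Hspa5 encodes BiP, the most abundant ER chaperone measured here and a regulator that holds the UPR sensors inactive. Hspa5 was at 2223, 2064 and 2197 TPM in KO libraries and 1913, 1882 and 1853 TPM in WT libraries. Every KO library lay above every WT library, and 35.7% of all tested genes were separated in this direction (71.1% in either). The rise was 15.3% (95% interval 10.1% to 20.8%), or 0.21 on the log2 scale with a standard error of 0.03 (adjusted p = 0.000203, edgeR). The underlying counts were 117357 to 144597 per library. Hsp90b1 encodes GRP94, the Hsp90-type chaperone of the ER. Hsp90b1 was at 1271, 1112 and 1214 TPM in KO libraries and 1208, 1201 and 1115 TPM in WT libraries, and the groups overlapped. The difference was 2.19% (95% interval -4.90% to 9.80%; adjusted p = 0.569, edgeR), and the sign turned without KO replicate 1 (log2 fold change -0.0095) and without WT replicate 3 (-0.0038). Of the 4032 exon bases of Hsp90b1, 415 are shared with the transcribed pseudogene 1810014B01Rik on the opposite strand, which did not pass the test; reads of the 2 genes may not have been told apart.

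Calnexin and calreticulin are the lectin chaperones that bind glycoproteins carrying a single glucose, calnexin in the ER membrane and calreticulin in the lumen. Calr was at 975, 919 and 949.8 TPM in KO libraries and 921, 939.7 and 871 TPM in WT libraries. The groups overlapped, and the difference of 4.21% (95% interval -1.19% to 9.92%) did not pass the test (adjusted p = 0.150, edgeR). Canx was at 426, 256 and 283 TPM in KO libraries and 387, 391 and 362 TPM in WT libraries. KO replicate 1 was above all WT libraries, and KO replicates 2 and 3 were below all of them. The difference over all libraries was -15.4% (95% interval -32.9% to 6.65%; log2 fold change -0.24, adjusted p = 0.177, edgeR). Without KO replicate 1 the log2 fold change of Canx was -0.49 with an adjusted p of 3.97e-05, against a range of 3.97e-05 to 0.491 over the alternatives tried. The direction for Canx was negative in each of them. The spread of Canx among KO libraries (SD of log2 CPM 0.376) was larger than that of 98.9% of the 2541 genes averaging 100 CPM or more, whereas among WT libraries it was 0.0555. Canx had 27562 to 46180 counts per library.

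Pdia4 encodes a protein disulfide isomerase of the ER lumen, and Sdf2l1 a partner of BiP and its Hsp40 cofactors. Pdia4 was at 166, 155 and 168 TPM in KO libraries and 189, 187 and 182 TPM in WT libraries. Every KO library was lower than every WT library, as for 35.4% of all tested genes, and Pdia4 fell by 12.4% (95% interval -17.7% to -6.78%; adjusted p = 0.00204, edgeR). Sdf2l1 was at 32.8, 29.9 and 30.2 TPM in KO libraries and 36.6, 37.7 and 34.4 TPM in WT libraries. These groups did not overlap either, and Sdf2l1 fell by 14.5% (95% interval -22.2% to -5.98%; adjusted p = 0.00837, edgeR). Pdia4 and Sdf2l1, classical targets of the UPR like Hspa5, thus fell in KO cells while Hspa5 rose.

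Dnajb9 encodes ERdj4, an Hsp40 cofactor of BiP and a target of XBP1, and Herpud1 encodes a membrane protein of the ERAD machinery that is induced in ER stress. Dnajb9 was at 17.4, 17.1 and 16.6 TPM in KO libraries and 18.7, 17.2 and 18.6 TPM in WT libraries. The lowest WT library lay within the KO range, and the difference of -5.79% (95% interval -14.5% to 3.79%) did not pass the test (adjusted p = 0.246, edgeR). Herpud1 was at 57.8, 61.6 and 63.1 TPM in KO libraries and 56.2, 60.5 and 61.1 TPM in WT libraries. These values overlapped, with a difference of 2.86% (95% interval -5.18% to 11.6%; adjusted p = 0.512, edgeR).

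Ern1 encodes IRE1, the sensor with kinase and RNase activity, and Xbp1 the transcription factor whose RNA it splices. Ern1 was at 20.5, 18.5 and 17.2 TPM in KO libraries and 22.6, 23.6 and 23.3 TPM in WT libraries. It showed the largest change among the 10 genes by size that passed the test, with a KO level 0.81 times that of WT (change of -26.3% to -11.1%, 95% interval; log2 fold change -0.30, adjusted p = 0.00139, edgeR), without overlap between the groups. Of all tested genes, 47.4% had a larger log2 fold change by size than Ern1. Xbp1 was at 64.4, 63.0 and 70.3 TPM in KO libraries and 69.6, 65.6 and 74.3 TPM in WT libraries. The groups overlapped and the difference of -5.54% (95% interval -13.6% to 3.28%) did not pass the test (adjusted p = 0.230, edgeR). The table gives 1 value for Xbp1 that joins both of its RefSeq transcripts, so the spliced and unspliced forms were not measured apart.

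Other genes of the ER were described from 10 lists of pathway members, in which 133 genes outside the 10 were tested. Of these 133 genes, 53 rose, 48 fell and 32 did not pass the test, so 75.9% passed, and their median log2 fold change was 0.01. Of all tested genes, 66.8% passed, 33.5% as higher and 33.3% as lower. The counts given for each list below are to be read beside these shares. Both directions occurred within every list, as the plot of log2 fold changes by list shows.

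**Figure D4:**
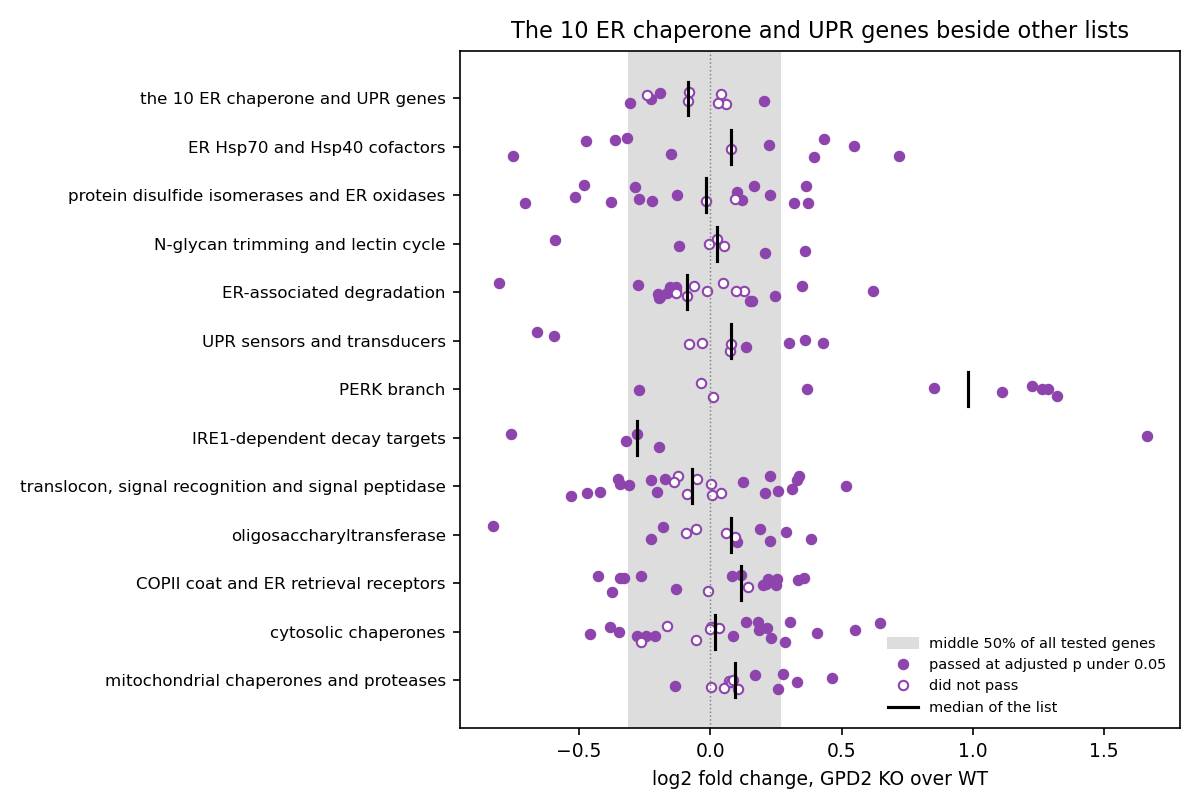
Log2 fold changes of GPD2 KO over WT (horizontal axis) for the 10 ER chaperone and UPR genes, 10 other ER lists and 2 lists of cytosolic and mitochondrial chaperones; each point is 1 gene, filled where it passed at an adjusted p under 0.05, the black bar is the list's median and the grey band holds the middle 50% of all tested genes. The 10 genes lie between -0.30 and 0.21, and the median of the PERK branch, 0.98, lies to the right of the band.

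The cofactors of BiP went both ways. Of 11 cofactors tested, 5 rose, 5 fell and 1 did not pass the test, with a median log2 fold change of 0.08. Dnajb11, which encodes the Hsp40 cofactor ERdj3, rose to 174 ± 4.89 CPM in KO cells, against 106 ± 1.45 CPM in WT cells (SD, n = 3 each; adjusted p = 3.21e-07, edgeR). Hyou1, a large Hsp70-type nucleotide exchange factor for BiP, rose to 416 ± 7.91 CPM in KO cells, against 284 ± 6.22 CPM in WT cells (SD, n = 3 each). Sdf2, the close relative of Sdf2l1, fell to 26.7 ± 0.597 CPM in KO cells, against 44.9 ± 2.85 CPM in WT cells (SD, n = 3 each). Manf, Creld2 and Dnajc3, named after their values were seen, are known as ER stress targets. Manf had a log2 fold change of 0.39 and Creld2 of 0.43, whereas Dnajc3, an Hsp40 cofactor that inhibits eIF2alpha kinases, had -0.47, and all 3 passed the test.

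Among 17 protein disulfide isomerases and ER oxidases, 7 rose, 8 fell and 2 did not pass the test, with a median log2 fold change of -0.02. P4hb, which encodes the prototype isomerase PDI, fell to 562 ± 21.8 CPM in KO cells, against 915 ± 34.1 CPM in WT cells (SD, n = 3 each; adjusted p = 4.01e-07, edgeR). Its log2 fold change of -0.70 compares with -0.19 for Pdia4. Tmx1, a membrane-bound isomerase, fell by 0.52 on the log2 scale, and Qsox2, a sulfhydryl oxidase, rose by 0.37. In the lectin cycle, 2 of 7 genes rose, 2 fell and 3 did not pass the test, with a median of 0.03. Uggt1, the folding sensor that returns glycoproteins to calnexin and calreticulin, fell to 299 ± 1.97 CPM in KO cells, against 451 ± 11.7 CPM in WT cells (SD, n = 3 each). Mcfd2, a cargo receptor subunit, rose by 0.36 on the log2 scale, and Man1b1, a mannosidase that marks glycoproteins for ERAD, by 0.21.

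Of 21 ERAD genes, 5 rose, 9 fell and 7 did not pass the test, with a median log2 fold change of -0.09. Selenos, a selenoprotein of the retrotranslocation complex, rose to 47.3 ± 0.727 CPM in KO cells, against 30.8 ± 0.516 CPM in WT cells (SD, n = 3 each). Derl2, a derlin of the same machinery, fell to 25.7 ± 0.646 CPM in KO cells, against 44.8 ± 4.30 CPM in WT cells (SD, n = 3 each). Herpud2, the relative of Herpud1, rose by 0.35 on the log2 scale. Of 10 sensors and transducers of the UPR besides Ern1, 4 rose, 2 fell and 4 did not pass the test, with a median of 0.08. The proteases that cleave ATF6 in the Golgi went opposite ways: Mbtps1 (site-1 protease) fell by 0.66 on the log2 scale and Mbtps2 (site-2 protease) rose by 0.43. Creb3l2, a membrane-bound transcription factor related to ATF6, fell by 0.60. The following sensor genes are named after their values were seen. Atf6, at 232 CPM in KO and 220 CPM in WT cells, did not pass the test (adjusted p = 0.120, edgeR). Eif2ak3, which encodes PERK, was at 21.8 CPM in KO and 22.3 CPM in WT cells and did not pass either (adjusted p = 0.615, edgeR). Atf6b, the relative of Atf6, rose to 140 CPM in KO cells, against 109 CPM in WT cells (adjusted p = 0.000116, edgeR).

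Genes listed for the PERK branch were mostly higher in KO cells, and whether PERK itself was involved was not tested. Of 10 genes tested, 7 rose, 1 (Ero1l, also in the oxidase list and named after its value was seen) fell and 2 did not pass. Of all tested genes, 33.5% rose and 33.3% fell. The median log2 fold change of the list, which was chosen with earlier results of these data known, was 0.98. Those past a fold of 2, all higher in KO cells, were Ppp1r15a (log2 fold change 1.29), Ddit3 (1.26), Chac1 (1.32), Atf3 (1.22) and Trib3 (1.11), which encode an eIF2alpha phosphatase subunit, the factor CHOP, a glutathione-degrading enzyme, a stress-induced transcription factor and a pseudokinase. Ppp1r15a was at 57.5 ± 2.22 CPM in KO cells and 23.6 ± 2.42 CPM in WT cells (SD, n = 3 each; adjusted p = 3.92e-07, edgeR). None of the 10 ER chaperone and UPR genes was past a fold of 2. At the study's thresholds, 5 of the 10 PERK branch genes were higher, and 3.86% of all tested genes. Of 5 genes known as substrates of IRE1-dependent RNA decay, Scara3 (log2 fold change -0.76), Hgsnat (-0.32), Col6a1 (-0.28) and Bloc1s1 (-0.20, named after its value was seen) fell, and Pdgfrb, at low counts, rose to 0.872 CPM in KO cells, against 0.274 CPM in WT cells.

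In the translocon and signal peptidase list, 8 of 24 genes rose, 9 fell and 7 did not pass the test, with a median log2 fold change of -0.07. Spcs3, a signal peptidase subunit, fell by 0.53 on the log2 scale, Srp54a, of the signal recognition particle, fell by 0.47, and Srprb, of its receptor, rose by 0.52. Of 12 oligosaccharyltransferase genes, 5 rose, 3 fell and 4 did not pass the test, with a median of 0.08. Tusc3, an oxidoreductase subunit, fell by 0.83 on the log2 scale, while Krtcap2 rose by 0.38 and Rpn1 by 0.23. Of 17 genes of the COPII coat and of ER retrieval, 9 rose, 6 fell and 2 did not pass the test, with a median of 0.12. Sec24c, a cargo adaptor of the coat, fell by 0.37, Sec13 rose by 0.33, and Kdelr2, a receptor that returns chaperones such as BiP and GRP94 to the ER, rose by 0.36. Its relatives Kdelr3 and Kdelr1 are named after their values were seen. Kdelr3 fell by 0.33, and Kdelr1, with a log2 fold change of 0.14, did not pass the test.

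Of 24 cytosolic chaperone genes, 11 rose, 6 fell and 7 did not pass the test, with a median log2 fold change of 0.02. Hsp90ab1, the constitutive cytosolic Hsp90, fell by 0.35 on the log2 scale, and its ER relative Hsp90b1 had a difference of 0.03. The other cytosolic Hsp90 gene, Hsp90aa1, named after its value was seen, rose by 0.18. Bag3, a cochaperone, rose by 0.55. Of 12 mitochondrial chaperone and protease genes, 5 rose, 1 fell and 6 did not pass, with a median of 0.10. Among all tested genes, 33.5% rose and 33.3% fell. Hspa9, the mitochondrial relative of BiP, rose to 1009 ± 39.2 CPM in KO cells, against 803 ± 25.6 CPM in WT cells (SD, n = 3 each), and Dnaja3, its Hsp40 cofactor, rose by 0.46 on the log2 scale. The differences between these lists and the 10 genes were not tested.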

How the data were processed

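TruSeq Stranded mRNA libraries of 6 samples were sequenced in paired ends. The authors trimmed with Trimmomatic 0.38, aligned to mm10 with HISAT2 2.1.0 and quantified with StringTie 1.3.4d. Raw read counts of each gene and the TPM that the authors computed for each library were taken from the deposited table, where no listed gene has a count of 0 in any library. Its FPKM, log2 and fold and p-value columns of the authors' own comparison were not used. Whether reads were counted by strand is not stated.

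Counts were tested in R 4.3.3 with edgeR 4.0.16: filterByExpr (minimum count 10), TMM scaling (factors 0.992 to 1.01), the quasi-likelihood test, and Benjamini-Hochberg adjustment over all tested genes. Standard errors and 95% intervals were derived from the quasi-likelihood F and its degrees of freedom. CPM used the TMM-scaled totals. Alternatives used DESeq2 1.42.0, limma 3.58.1 on log2(TPM + 1) or log2(TPM + 0.1), edgeR's exact test, no filter, median-of-ratios scaling, a replicate block, and each library left out. The workflow was tested on simulated data. The 10 genes and all lists were chosen with earlier results of these data known. Besides these 10 and Gpd2, the 3 genes with the smallest adjusted p of each ER list, 2 of each other chaperone list, and any past a fold of 2 were named. Replicates differed by more than sampling noise (chi-square per degree of freedom 16.8 to 25.3). The labels do not say whether samples were separate cultures (the methods call the study's samples biologically independent in general), so p-values measure only the spread between these samples, which may be technical. No protein sequences were used.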

Additional observations from a re-analysis of the deposited data

How the results depend on the processing

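Over the alternatives tried, the calls of Hspa5 (log2 fold change 0.19 to 0.22), Pdia4 (-0.22 to -0.17), Sdf2l1 (-0.27 to -0.20) and Ern1 (-0.37 to -0.25) held in 12 of 13 each; the remaining one was the exact test with a fold of 2, under which none of the 10 genes passed (0 called, 0 higher, 0 lower, against 4, 1 and 3; log2 fold changes 0.21 for Hspa5, -0.19 for Pdia4, -0.23 for Sdf2l1 and -0.30 for Ern1). By construction that criterion also lowered the changed genes to 1046 (467 higher and 579 lower, against 8085, 4051 and 4034) and those of the ER lists to 6 higher and 0 lower, against 53 and 48. Leaving out 1 library gave 4 to 5 of the 10 called (1 higher, and 3 to 4 lower), 7433 to 7783 changed genes, 48 to 52 ER list genes higher and 44 to 50 lower. The fifth gene was Canx without GPD2 KO replicate 1 (-0.49; -0.49 to -0.11 over the libraries left out, and the cause was not tested). Hsp90b1 ranged from -0.0095 to 0.0704, with -0.0095 without GPD2 KO replicate 1 and -0.0038 without WT replicate 3. Calr (0.03 to 0.08), Herpud1 (0.01 to 0.08), Dnajb9 (-0.13 to -0.06) and Xbp1 (-0.13 to -0.03) passed in none of the alternatives, and Gpd2 stayed between -2.40 and -2.28. With the replicate number as a block, 4 of the 10 and 7974 genes were called. Samples of the same number had correlations of -0.0165 to 0.0621 between KO and WT in their deviations from the group means. GPD2 KO replicate 1 correlated best with WT replicate 1 (0.0549). GPD2 KO replicates 2 (0.0907 with WT replicate 3) and 3 (0.101 with WT replicate 1) correlated best with another number. Correlations this small, from 3 libraries per group, cannot show whether the numbers pair samples, and the labels do not say. How far depth limited the genes of lower count, such as Dnajb9 (760 to 890 counts per library) and Sdf2l1 (833 to 1152), was not tested.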

Other observations

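Canx was not alone in having a single library apart from the others at high depth. In GPD2 KO replicate 1 it was 1.49 times the next KO library. Gaps of at least that size between 1 library and both others of its group were counted over the 2541 genes averaging 100 CPM or more. There were 29 such gaps among the KO libraries and 33 among the WT libraries, and a gene with more than 1 gap counted for each. In GPD2 KO replicate 1, the genes raised by such a gap were Dag1 (2.14 on the log2 scale), Chtop (0.74) and Canx (0.58), named after their values were seen. The cause was not tested.

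Of the 133 other ER genes, 103 were matched to a promoter window and 30 were not analysed here for motifs. Among the 103, 8 had a relaxed ERSE, which was found in 0.314% of all windows and 0.427% of windows of tested genes. As these genes were listed as known ER genes, the shares are no test of enrichment. Creld2 and Syvn1, an ERAD ubiquitin ligase, were higher in GPD2 KO cells, with log2 fold changes of 0.43 and 0.25. Dnajc3 (-0.47), Ero1lb (-0.38), Sec61g (-0.34), Pdia6 (-0.22), Vcp (-0.20) and Sel1l (-0.19) were lower. All 8 passed the test, 2 as higher and 6 as lower. Of all tested genes, 33.5% were higher and 33.3% lower. A full ERSE was held by 5 of the 8, of which 2 were higher and 3 lower. The median log2 fold change of these 8 was -0.21, beside 0.08 for the 95 ER genes whose windows held none, and this difference was not tested. The 4 genes with a relaxed ERSE among the 10 had log2 fold changes of 0.21 (Hspa5), 0.06 (Calr), 0.03 (Hsp90b1) and -0.24 (Canx), and only Hspa5 passed.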
